A study of Mus musculus with 24 samples.

Results

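The genes described are a set of replication-coupled chromatin and DNA methylation genes: Asf1a, Asf1b, Chaf1a, Chaf1b, Hells, Uhrf1, Dnmt1, Dnmt3a, Dnmt3b and Hat1. They were taken by name, as every probe set of the Affymetrix MOE430A and MOE430B arrays that the array annotation assigns to 1 of these 10 genes alone. Of the 10 genes, 9 had such a probe set, and 21 probe sets represented them among 45137 probe sets of the series and 18194 genes. Chaf1a was not analysed here.

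The samples were 12 cultures of mouse primary skeletal muscle cells in 4 groups of 3, each hybridised to 1 array of each type. MCK-cre Rb-flox myotubes (cultures J, K and L) carried floxed Rb, the retinoblastoma tumour suppressor gene, and Cre driven by the muscle creatine kinase promoter, which becomes active as muscle cells differentiate. Wild-type myotubes (G, H and I) were their controls, and both kinds were harvested at day 6 in low-serum medium, DMEM with 5% horse serum. The labels give 3 independent cell lines per genotype for the myotubes. Rb-null myoblasts (D, E and F) lacked the Rb protein and were described as defective in differentiation, and wild-type myoblasts (A, B and C) were their controls. Both kinds of myoblasts came from satellite cells, the stem cells of muscle, grew in Ham's F-10 with 20% fetal bovine serum and basic fibroblast growth factor, and were called biological triplicates. The Rb-null myoblasts and the MCK-cre Rb-flox myotubes carried different alleles and came from different cultures, so the myotubes were not the differentiated form of those myoblasts.

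The 8 measured genes are represented by 1423511_at (Asf1a, chr10:53596961-53609225), 1423714_at (Asf1b, chr8:83955694-83970195), 1423877_at (Chaf1b, chr16:93883900-93906115), 1428061_at (Hat1, chr2:71389260-71441622), 1422946_a_at (Dnmt1, chr9:20907206-20959888), 1415810_at (Uhrf1, chr17:56303337-56323486), 1417541_at (Hells, chr19:38930262-38970470) and 1423063_at (Dnmt3a, chr12:3801559-3914443). Positions are those of the whole gene on mouse build GRCm38.p6, since the positions of the probes were not used here. Dnmt3b lies at chr2:153649411-153687730.

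Each round of DNA replication needs new nucleosomes and a copy of the methylation pattern. Hat1 acetylates newly made histone H4, the chaperones Asf1a and Asf1b carry H3-H4 pairs, and chromatin assembly factor CAF-1, of which Chaf1a and Chaf1b are subunits, deposits them behind the fork with the sliding clamp PCNA. Uhrf1 recognises hemimethylated DNA and brings in Dnmt1, the maintenance methyltransferase, while Hells is a remodeler that opens nucleosomal DNA to methylation. Dnmt3a and Dnmt3b place methyl groups on unmethylated sites. Rb holds E2F transcription factors in check, and many E2F target genes serve S phase.

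Values are MAS5 intensities, scaled by the authors so that each array has a trimmed mean close to 1500. Changes are log2 differences of intensity plus an offset of 130.2 on MOE430A and 206.0 on MOE430B, tested with limma over 31931 probe sets. A change was called at a Benjamini-Hochberg adjusted p under 0.05. The offset makes fold changes of dim probe sets smaller than the ratio of their intensities. Where a gene had several probe sets, 1 on MOE430A stood for it in counts of genes, and 16 of the 21 probe sets and 8 of the 9 genes passed the filter on dim signals. These are bulk cultures, in which fewer cells that use a gene and less RNA per cell cannot be told apart.

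Rb1 itself, the check of the labels, had intensities of 685, 802 and 589.8 in MCK-cre Rb-flox myotubes, against 3664, 3265 and 3314 in wild-type myotubes. It had 428, 712 and 259.7 in Rb-null myoblasts, against 2879, 1439.7 and 1579 in wild-type myoblasts. Both Rb-deficient groups lay wholly below their controls. The log2 change was -2.11 (limma adjusted p 0.00109) in myotubes, and -1.82 (limma adjusted p 0.352) in myoblasts, where it did not pass the test. In a fit of MOE430A with the washing protocol as a block, added after seeing the data, the myoblast change passed (limma adjusted p 0.0438). The region this probe set reads was not compared with the deleted part of the gene. The summed intensity of the 4 measured of 5 proliferation markers (Mki67, Top2a, Cdk1 and Birc5) was 16667 to 18132 in MCK-cre Rb-flox myotubes, 426 to 746 in wild-type myotubes, 29439 to 31566 in Rb-null myoblasts and 23029 to 28943 in wild-type myoblasts. The sum of 5 markers of differentiated muscle was 190115 to 286863, 390836 to 571403, 27995 to 97825 and 29071 to 76431 in the same order of groups. All 5 fibroblast markers were measured, with sums of 5644 to 6118, 4685 to 6738, 2021 to 4249.8 and 2504 to 6107 in that order, and fibroblasts are the contaminant named by the labels, which state a purity of 99 to 100%. Scanning of both kinds of myotubes fell on the last day together with culture B of the wild-type myoblasts, and all other myoblasts preceded them. On MOE430A all MCK-cre Rb-flox myotube arrays were washed under 1 fluidics protocol and all wild-type myotube arrays under another, and the ratio of 3′ to 5′ actin signals was 0.809 to 0.965 in MCK-cre Rb-flox myotubes and 0.422 to 0.593 in wild-type myotubes.

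Promoter windows of 300 bases, from 250 bases before to 50 after the annotated start of transcription, were taken from RefSeq on mouse build GRCm38.p6 and existed for all 10 genes (15 windows in all). They were searched on both strands for 4 forms of the E2F site (TTTCCCGC, TTTCGCGC, TTTGCCGC and TTTGGCGC) and for TTTGAA, a form of the cell-cycle homology region found in promoters of mitotic genes. No matches overlap in the windows shown. A form of the E2F site stood in windows of 3 of the 10 genes, Dnmt1, Uhrf1 and Hells, whereas 2.26% of all 32851 windows and 2.6% of all 27025 genes had one. TTTGAA stood in windows of 3 of the 10 genes, Asf1b, Dnmt1 and Dnmt3b, whereas 20.2% of all genes had it. For each of the 4 genes that differed with Rb in myotubes and had a match, 1 window is shown, 5′ to 3′ along the strand of the gene with the match in capitals. That of Dnmt1 is chr9:20952574-20952873 on the minus strand, that of Uhrf1 chr17:56304063-56304362, that of Hells chr19:38930740-38931039 and that of Asf1b chr8:83955444-83955743, all 3 on the plus strand. A match is a description of the sequence and no evidence that a factor binds there.
Dnmt1: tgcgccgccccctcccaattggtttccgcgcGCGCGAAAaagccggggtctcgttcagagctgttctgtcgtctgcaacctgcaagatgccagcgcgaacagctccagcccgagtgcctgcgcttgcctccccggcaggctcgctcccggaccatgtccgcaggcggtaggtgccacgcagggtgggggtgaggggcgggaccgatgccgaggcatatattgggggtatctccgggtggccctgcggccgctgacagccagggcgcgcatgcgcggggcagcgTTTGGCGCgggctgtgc
Uhrf1: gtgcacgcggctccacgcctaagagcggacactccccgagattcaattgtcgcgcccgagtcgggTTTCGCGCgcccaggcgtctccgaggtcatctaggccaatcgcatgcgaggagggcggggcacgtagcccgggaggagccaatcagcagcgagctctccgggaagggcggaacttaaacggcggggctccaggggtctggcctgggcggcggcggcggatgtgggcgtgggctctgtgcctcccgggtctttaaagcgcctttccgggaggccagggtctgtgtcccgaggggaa
Hells: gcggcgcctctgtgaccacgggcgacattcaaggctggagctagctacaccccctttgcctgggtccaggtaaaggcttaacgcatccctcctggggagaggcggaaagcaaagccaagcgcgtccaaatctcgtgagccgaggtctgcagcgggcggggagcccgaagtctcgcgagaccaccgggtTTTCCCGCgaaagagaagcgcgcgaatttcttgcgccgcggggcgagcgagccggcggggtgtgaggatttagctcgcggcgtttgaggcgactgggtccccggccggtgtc
Asf1b: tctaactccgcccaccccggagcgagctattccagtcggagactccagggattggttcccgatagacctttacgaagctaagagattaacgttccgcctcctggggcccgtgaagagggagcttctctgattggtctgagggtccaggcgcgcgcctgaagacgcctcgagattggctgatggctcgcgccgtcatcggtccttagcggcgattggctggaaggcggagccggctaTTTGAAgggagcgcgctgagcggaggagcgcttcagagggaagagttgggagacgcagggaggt
The Dnmt1 window holds GCGCGAAA, the E2F form read on the other strand, starting 219 bases before the start of transcription, and TTTGGCGC at base 34 after it. The Uhrf1 match starts 185 bases before the start and the Hells match 62 bases before it. TTTGAA in the Asf1b window starts 14 bases before the start. Dnmt1 and Uhrf1 have other annotated starts, whose windows hold no E2F form and are not shown. The Dnmt1 window chr9:20959839-20960138 among these holds TTCAAA, which is TTTGAA on the other strand, 199 bases before its start.

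Most of these genes were higher in myotubes without Rb. Of the 8 genes measured, 6 were higher in MCK-cre Rb-flox than in wild-type myotubes (Asf1b, Chaf1b, Hat1, Dnmt1, Uhrf1 and Hells) and none was lower, while 8.21% of all probe sets tested were called, 4.96% higher and 3.25% lower. The median log2 change of the 8 genes was 1.91, against 0.01 over all 14331 genes. Asf1a and Dnmt3a did not pass the test.

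Among the histone chaperones, Asf1b had intensities of 5323, 8379.7 and 6733 in MCK-cre Rb-flox myotubes, against 1535, 1689.5 and 1645 in wild-type myotubes. The groups lay far apart, and the mean was 6812 ± 1529.9 against 1623 ± 79.3 (SD, n = 3 each), a log2 change of 1.96 ± 0.19 (SE) with a limma adjusted p of 3.61e-05. Its paralogue Asf1a had 2388, 2446 and 2507 in MCK-cre Rb-flox myotubes, against 1712, 1888 and 2128 in wild-type myotubes. These groups did not overlap either, but the log2 difference was 0.34 with a 95% interval of -0.04 to 0.73 and an adjusted p of 0.3 in the limma fit. Chaf1b, the middle subunit of CAF-1, had 2193, 2816 and 2519 in MCK-cre Rb-flox myotubes, against 515, 572 and 736 in wild-type myotubes. Every MCK-cre Rb-flox culture stood above every wild-type one, with a log2 change of 1.84 ± 0.25 and a limma adjusted p of 0.000554. Hat1 had 2969, 3912 and 2844 in MCK-cre Rb-flox myotubes, against 741, 824 and 801 in wild-type myotubes. The wild-type cultures were close to each other, and the log2 change was 1.86 ± 0.21 (limma adjusted p 0.000128).

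All 3 measured maintenance methylation genes were higher. Dnmt1 had 9762, 12299.9 and 11359.9 in MCK-cre Rb-flox myotubes, against 1365, 1551 and 1641 in wild-type myotubes. The lowest MCK-cre Rb-flox culture was far above the highest wild-type one, and the log2 change was 2.77 ± 0.16, 6.82-fold (limma adjusted p 5.57e-07). Uhrf1 had 1591, 1412 and 1261 in MCK-cre Rb-flox myotubes, against 22.1, 137 and 183 in wild-type myotubes, where it was near or below the offset. Its second probe set, 1415811_at, read 1256, 1016 and 1187 in MCK-cre Rb-flox myotubes, against 21.3, 35.3 and 28.7 in wild-type myotubes. Neither probe set showed overlap between the groups, and the log2 changes were 2.73 ± 0.29 and 3.01 ± 0.24, with limma adjusted p of 9.36e-05 and 7.64e-06. Hells had 1426, 789 and 1902 in MCK-cre Rb-flox myotubes, against 8.94, 47.6 and 304 in wild-type myotubes. The groups did not overlap, but the cultures were spread widely: the log2 change was 2.69 ± 0.44 with a 95% interval of 1.75 to 3.64, the widest of the 8 (limma adjusted p 0.00212). The sizes for Uhrf1 and Hells depend on the offset: between offsets at the 40th and the 5th percentile they ran over 1.77 to 3.61 and 1.69 to 3.79, so their order among the 8 genes is not settled, while both kept their calls.

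The de novo methyltransferases did not pass the test or the filter. Dnmt3a had 956, 783 and 559 in MCK-cre Rb-flox myotubes, against 874, 1437 and 763 in wild-type myotubes. The groups overlapped, and the log2 difference was -0.35 with a 95% interval of -1.03 to 0.34 (limma adjusted p 0.598). Dnmt3b did not pass the filter. Its probe set 1418351_a_at had 95.6, 510.3 and 390.1 in MCK-cre Rb-flox myotubes, 486, 207 and 353 in wild-type myotubes, 153, 171 and 427 in Rb-null myoblasts and 220.3, 669.9 and 53.8 in wild-type myoblasts, and all 4 groups overlapped. The other probe set, 1449052_a_at, lay between 32.9 and 288 in all 12 cultures. Also below the filter were 1459882_at of Asf1a and 1423064_at and 1423066_at of Dnmt3a.

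The washing protocol of the MOE430A arrays was confounded with genotype in myotubes, and the myoblast arrays of each genotype held both protocols. In a fit of MOE430A with the protocol as a block, added after seeing the data, the same 6 genes were called, with log2 changes of 2.02 for Asf1b, 2.05 for Chaf1b, 2.13 for Hat1, 2.85 for Dnmt1, 2.54 for Uhrf1 and 2.69 for Hells. The block is estimated from myoblasts only, from B against A and C and from F against D and E. Culture B also differs from A and C in scan day. The effect of the protocol within myotubes was not tested. The part of the lower actin ratio of wild-type myotubes in these differences was not tested. The proliferation markers given above moved in the same direction, and their part was not tested.

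**Figure D1:**
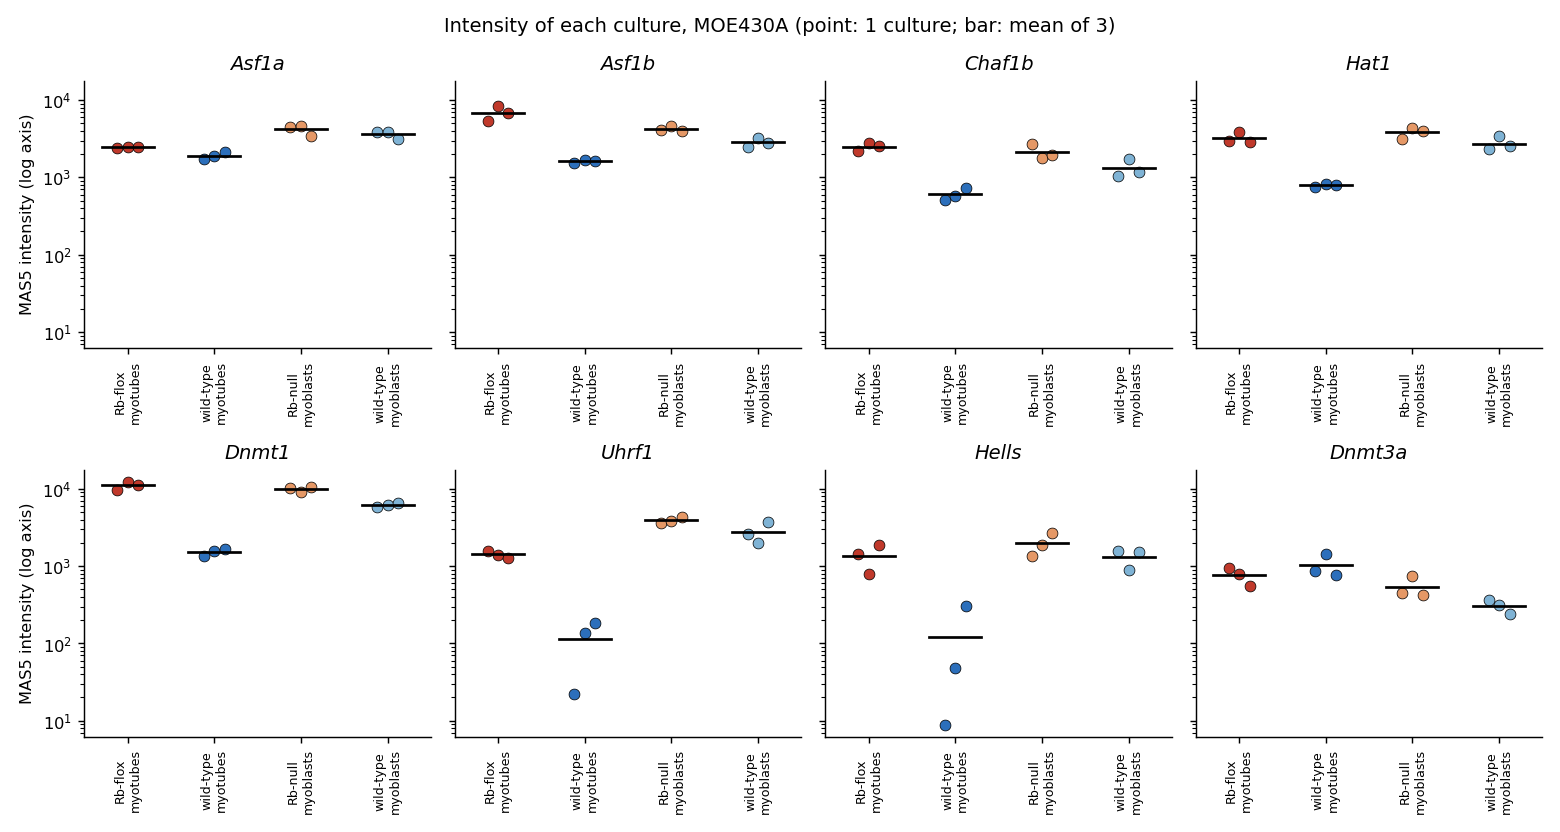
MAS5 intensity (log axis) of the MOE430A probe set standing for each of the 8 measured genes, with 1 point per culture and a bar at the mean of 3, in MCK-cre Rb-flox myotubes, wild-type myotubes, Rb-null myoblasts and wild-type myoblasts. Wild-type myotubes are the lowest group for every gene but Dnmt3a, and for Uhrf1 they lie between 22.1 and 183.

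In myoblasts no gene of the set passed the test. On the probe set standing for each gene, the mean of all 8 measured genes was higher in Rb-null than in wild-type myoblasts. The other Chaf1b probe set, 1431275_at on MOE430B, went the other way, with means of 1329 in Rb-null and 1559 in wild-type myoblasts. It alone did so among the probe sets that passed the filter. The log2 differences were 0.22 for Asf1a to 0.67 for Dnmt1 with a median of 0.55, against -0.01 over all genes. The 8 genes were measured in the same cultures, so these signs are not independent and are given as a description. In this comparison 0% of all probe sets tested were called in either direction, and 1431 of 31931 had an unadjusted limma p under 0.05. With array weights 3 probe sets were called, and with each chip type fitted on its own 2. Rb1 was called on MOE430A with the washing protocol as a block (limma adjusted p 0.0438). Dnmt1 had 10137, 8999 and 10624 in Rb-null myoblasts, against 5774, 6230.2 and 6564 in wild-type myoblasts. The groups did not overlap, and the 95% interval of the log2 difference was 0.33 to 1.01 (limma adjusted p 0.58). Asf1b had 4156, 4615 and 3964 in Rb-null myoblasts, against 2512, 3203 and 2812 in wild-type myoblasts. Again all 3 Rb-null cultures were higher, with an interval of 0.16 to 0.97 (limma adjusted p 0.864). Chaf1b had 2733, 1779 and 1957 in Rb-null myoblasts, against 1054, 1735 and 1188 in wild-type myoblasts. Culture D was the highest and culture B, the highest wild-type one, came just under the lowest Rb-null one. Dnmt3a had 448, 755 and 419 in Rb-null myoblasts, against 361, 316 and 242 in wild-type myoblasts, without overlap and with an interval of -0.09 to 1.28.

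The other 4 genes overlapped between the myoblast groups, and no share of all probe sets without overlap is given for comparison. Uhrf1 had 3639, 3834 and 4364 in Rb-null myoblasts, against 2617, 2002 and 3673 in wild-type myoblasts. Hells had 1353, 1886 and 2704 in Rb-null myoblasts, against 1564, 883 and 1518 in wild-type myoblasts. Wild-type culture C reached into the Rb-null range for Uhrf1, and A and C did for Hells. Hat1 had 3183, 4375 and 3929.8 in Rb-null myoblasts, against 2324, 3389 and 2514 in wild-type myoblasts. Asf1a had 4544, 4689.5 and 3479.6 in Rb-null myoblasts, against 3862, 3833 and 3124 in wild-type myoblasts.

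The effect of Rb loss was larger in myotubes than in myoblasts for 4 genes of the 8, by the test of the difference itself (the log2 change in myotubes minus that in myoblasts). These were Dnmt1 (2.10 ± 0.22, limma adjusted p 0.000632), Uhrf1 (2.20 ± 0.41, 0.0198), Asf1b (1.40 ± 0.27, 0.0209) and Hat1 (1.39 ± 0.29, 0.0356). The Rb-deficient myotubes and myoblasts carried different alleles, so stage and allele cannot be told apart here. On MOE430A the washing protocol also differed between the myotube genotypes. Over all probe sets, 1.3% passed this test, 0.883% with a positive difference and 0.413% with a negative one. Hells had a difference of 2.16 with a 95% interval of 0.83 to 3.50 (limma adjusted p 0.12), and Chaf1b 1.19 with 0.44 to 1.94 (0.13). For Dnmt3a the difference was -0.94 with an interval of -1.90 to 0.02, and for Asf1a 0.12 with -0.42 to 0.67. On its probe set 1447877_x_at on MOE430B Dnmt1 did not pass this test. On 1422946_a_at the call for Dnmt1 held without each culture in turn. That for Uhrf1 was lost without C, D, E or J, with limma adjusted p of 0.0503 to 0.0686, and that for Asf1b without C or D, with 0.064 and 0.0589. That for Hat1 was lost without any culture other than A or L, with limma adjusted p of 0.0591 to 0.106, and with median centring (0.052). With the offset at the 40th percentile the calls for Uhrf1 (0.0531) and Hat1 (0.0518) were lost. Hells passed the test with array weights (limma adjusted p 0.0381) and without culture I (0.0385).

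**Figure D2:**
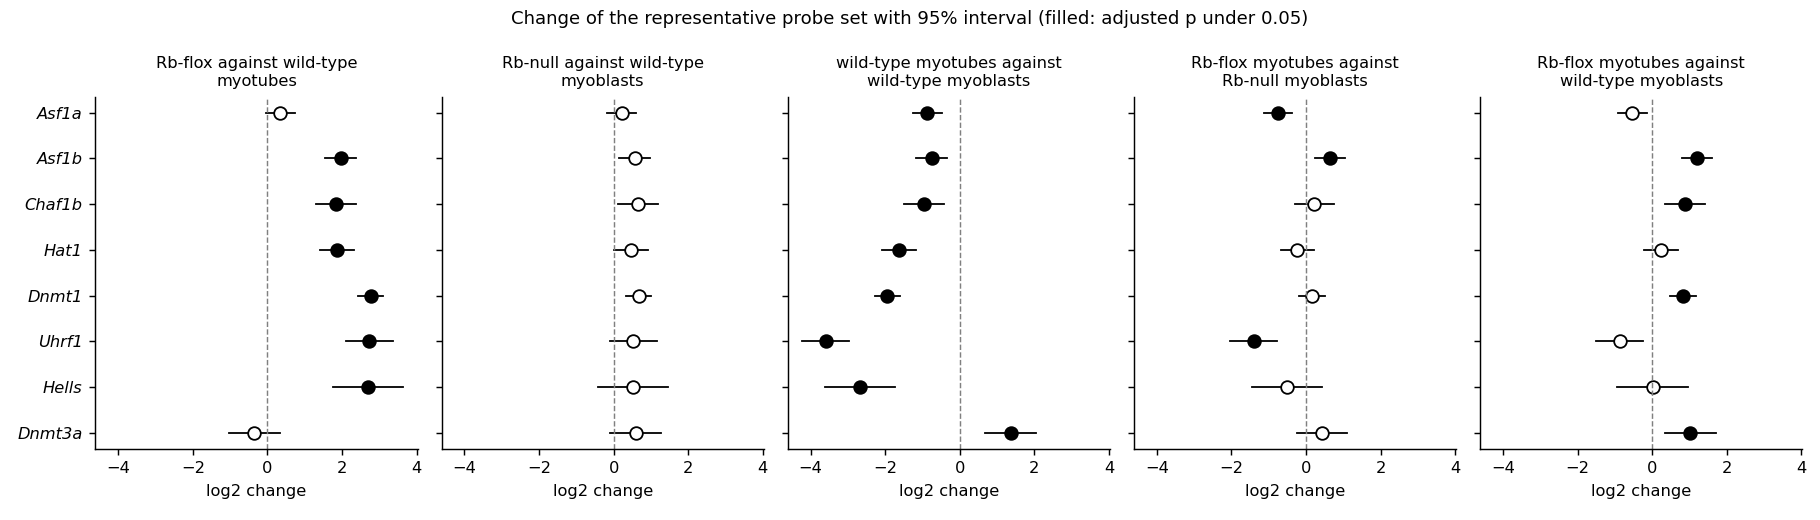
Log2 change with its 95% interval for the probe set standing for each of the 8 measured genes in 5 comparisons, with filled points for an adjusted p under 0.05. Between MCK-cre Rb-flox and wild-type myotubes Dnmt1, Uhrf1 and Hells lie at 2.77, 2.73 and 2.69, and Dnmt3a alone is above 0 between wild-type myotubes and wild-type myoblasts.

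With Rb present, 7 of the 8 genes were lower in wild-type myotubes than in wild-type myoblasts, and Dnmt3a was higher. In this comparison 25% of all probe sets tested were called, 13.7% lower and 11.3% higher. It shares its wild-type myotubes with the comparison of the myotube genotypes, so the 2 sets of changes are not independent. The median log2 change of the 8 genes was -1.30, against 0.14 over all genes. The log2 changes were -3.59 for Uhrf1, -2.68 for Hells, -1.94 for Dnmt1 and -1.63 for Hat1, and smaller for Chaf1b (-0.96), Asf1a (-0.87) and Asf1b (-0.76), with limma adjusted p between 3.8e-06 and 0.0119. With offsets at the 5th and the 40th percentile Uhrf1 had -4.52 and -2.52 and Hells -3.78 and -1.67. For each of these 7 genes every wild-type myotube culture lay below every wild-type myoblast culture. The share of all probe sets that lie apart in this way is not given here, so the separation only describes these genes. Culture B, the only myoblast culture scanned on the same day as the myotubes, had 6230.2 for Dnmt1 and 2002 for Uhrf1, against the wild-type myotube ranges of 1365 to 1641 and 22.1 to 183. With the scan day as a block the changes of the same 7 genes were negative too. That fit sets the myotubes against culture B alone, because A and C share no scan day with them. The same holds for each fit of myotubes against wild-type myoblasts with this block. On MOE430A the actin ratio of wild-type myotubes (0.422 to 0.593) lay below that of wild-type myoblasts (1.06 to 1.18). The 18S ribosomal RNA signal was 6804 to 11502 in wild-type myotubes, against 511, 7903 and 199 in wild-type myoblasts A, B and C. The part of both in this comparison was not tested.

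Dnmt3a had 874, 1437 and 763 in wild-type myotubes, against 361, 316 and 242 in wild-type myoblasts. The groups did not overlap, and the log2 change was 1.37 ± 0.32 (limma adjusted p 0.00684). With the scan day as a block the change was 1.33 and the limma adjusted p 0.0546, so that it no longer passed. Its probe set 1460324_at was also called (1.10, 0.0171), and 1423065_at was not (0.69, 0.118).

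The levels in MCK-cre Rb-flox myotubes were also set against both dividing groups. The signal of the 18S ribosomal RNA probe sets on MOE430A was 5394 to 11786 in MCK-cre Rb-flox myotubes, 263 to 311 in Rb-null myoblasts and 199 to 7903 in wild-type myoblasts. The summed intensity of 5 macrophage markers was 3752 to 4496 in MCK-cre Rb-flox myotubes, 1645 to 2490 in Rb-null myoblasts and 1789 to 3291 in wild-type myoblasts, and of the 4 that passed the filter 3 were called higher against Rb-null and 2 against wild-type myoblasts. The part of the 18S signal and of these markers in the differences was not tested. Against wild-type myoblasts, 4 of the 8 genes were higher and none lower, with 15.8% of all probe sets tested called, 7.11% higher and 8.73% lower. The 4 were Asf1b (1.21 ± 0.19, limma adjusted p 0.00141), Dnmt3a (1.02 ± 0.32, 0.0436), Chaf1b (0.88 ± 0.25, 0.0286) and Dnmt1 (0.83 ± 0.16, 0.00417). Asf1b and Dnmt1 kept their calls without each culture in turn. Chaf1b lost its call without A, C, K or L (limma adjusted p 0.0681 to 0.109), with the scan day as a block (0.358) and with only the compared groups (0.0535). The other Chaf1b probe set, 1431275_at on MOE430B, did not show this excess. Its mean was 1487 in MCK-cre Rb-flox myotubes and 1559 in wild-type myoblasts, and the groups overlapped. Dnmt3a lost its call without A, B, C, D, F, G, J or K (limma adjusted p 0.0514 to 0.148), with the scan day as a block (0.195), quantile normalization (0.111), median centring (0.0545), no filter (0.0578) and only the compared groups (0.0826). Hells and Hat1 had log2 differences of 0.01 and 0.24, with 95% intervals of -0.93 to 0.96 and -0.21 to 0.68. For Uhrf1 the difference was -0.86, with an interval of -1.49 to -0.23 and a limma adjusted p of 0.061, and it passed the test without B (0.036) or G (0.0286), with the offset at the 40th percentile (0.0263), with each chip type on its own (0.032), with array weights (0.0125) and with the fluidics block (0.0311). Every MCK-cre Rb-flox myotube culture was below every wild-type myoblast culture for Uhrf1 and for Asf1a, whose difference was -0.53 (limma adjusted p 0.0612, and 0.0295 to 0.0487 with 1 probe set per gene, each chip type on its own or the fluidics block).

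Against Rb-null myoblasts, Asf1b was higher in MCK-cre Rb-flox myotubes (0.65 ± 0.19, limma adjusted p 0.0355), and Uhrf1 (-1.39 ± 0.29, 0.00745) and Asf1a (-0.75 ± 0.18, 0.0145) were lower. Of all probe sets tested 15.3% were called, 6.61% higher and 8.67% lower. The call for Asf1b was lost without C, D, E, F, K or L (limma adjusted p 0.0509 to 0.116), with median centring (0.0617) and with only the compared groups (0.0694), and that for Asf1a without D or E (0.0593 and 0.0595), while that for Uhrf1 held without each culture. With the scan day as a block all 3 were lost (0.207 to 0.659), and the Uhrf1 difference was -0.79. Rb-null myoblasts shared no scan day with the myotubes, and the block is estimated from culture B against A and C.

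These comparisons shifted with the scaling. The median log2 difference over all probe sets was 0.13 against wild-type and 0.11 against Rb-null myoblasts. Centring each array on its median took these to 0.00 and -0.01, and the share of calls that were higher went to 32.8% with centring from 44.9% without it against wild-type myoblasts, and to 32.1% with it from 43.3% without it against Rb-null myoblasts.

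Differences between genes within each culture were computed for pairs chosen after their values were seen. The log2 value of Asf1b minus that of Uhrf1 was 1.66, 2.46 and 2.30 in MCK-cre Rb-flox myotubes, against 0.19, 0.26 and -0.13 in Rb-null myoblasts and -0.06, 0.64 and -0.37 in wild-type myoblasts. The myotube values lay above all 6 myoblast values, by 2.04 on average against Rb-null and 2.07 against wild-type myoblasts. Dnmt1 minus Uhrf1 differed by 1.69 and Asf1b minus Asf1a by 1.74 between MCK-cre Rb-flox myotubes and wild-type myoblasts, without overlap. In each case the exact permutation test (two-sided, 3 cultures against 3) gave p = 0.1, the smallest this design allows. The single genes of each pair already lay apart in opposite directions in these comparisons. The choice of pairs thus fixed this p, and it adds no support. The values are differences between probe sets, so their size in 1 group has no meaning by itself.

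Ordered by mean level, Dnmt1 and Asf1b ran from MCK-cre Rb-flox myotubes over Rb-null and wild-type myoblasts to wild-type myotubes. For Asf1b the step between MCK-cre Rb-flox myotubes and Rb-null myoblasts passed the test, and for Dnmt1 it did not (0.16, limma adjusted p 0.508). Chaf1b had the same order on 1423877_at, with 2509 ± 311, 2156 ± 507, 1326 ± 360.4 and 608 ± 115, but not on 1431275_at. Hat1 and Hells ran from Rb-null myoblasts over MCK-cre Rb-flox myotubes and wild-type myoblasts to wild-type myotubes, and of these steps that to wild-type myotubes alone passed the test. Uhrf1 and Asf1a put both myoblast groups first, then MCK-cre Rb-flox myotubes, then wild-type myotubes. Dnmt3a ran from wild-type over MCK-cre Rb-flox myotubes and Rb-null to wild-type myoblasts, and no step between neighbours passed the test.

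Genes with several probe sets did not always give 1 answer. Of the 16 probe sets that passed the filter, 10 were higher and none lower in MCK-cre Rb-flox than in wild-type myotubes. All 3 Dnmt1 probe sets were called, with log2 changes of 2.77, 3.80 and 2.50. For Hells, 1417541_at changed by 2.69, 1430139_at on MOE430B by 0.76 (limma adjusted p 0.0135), and 1453361_at on MOE430B by 0.26 (0.727), which did not pass. The second of these had 4333, 3836 and 3572 in MCK-cre Rb-flox myotubes, against 2180.1, 2117 and 2346 in wild-type myotubes. In the third, which had 809, 481 and 960.4 in MCK-cre Rb-flox and 564, 958 and 324 in wild-type myotubes, the groups overlapped. For Chaf1b, 1431275_at on MOE430B had 1405, 1123 and 1935 in MCK-cre Rb-flox myotubes, against 1199.8, 1854 and 996 in wild-type myotubes. It overlapped in all 4 groups and had a log2 difference of 0.13 with an interval of -0.43 to 0.69, where the MOE430A probe set had 1.84. The rise of Chaf1b thus rests on 1 of 2 probe sets and that of Hells on 2 of 3.

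The third Dnmt1 probe set, 1447877_x_at on MOE430B, also placed MCK-cre Rb-flox myotubes differently from the other 2. Probe sets whose names end in x_at hold probes that may match other transcripts, and 1435122_x_at on MOE430A is of this kind as well. Probe set 1447877_x_at had 2944, 5155 and 3497 in MCK-cre Rb-flox myotubes, 749, 215 and 657 in wild-type myotubes, 9477, 5873 and 7546 in Rb-null myoblasts and 5038, 2931 and 6041 in wild-type myoblasts. Here MCK-cre Rb-flox myotubes overlapped wild-type myoblasts (-0.24, limma adjusted p 0.66), whereas the MOE430A probe sets gave 0.83 and 0.94. The excess of Dnmt1 over wild-type myoblasts was therefore seen with 2 probe sets of 3, and 1422946_a_at is the only one of the 3 that is not of the x_at kind. Of the Dnmt3a probe sets that passed the filter, none of 3 was called between MCK-cre Rb-flox and wild-type myotubes, with log2 differences of -0.35 to 0.27.

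**Figure D3:**
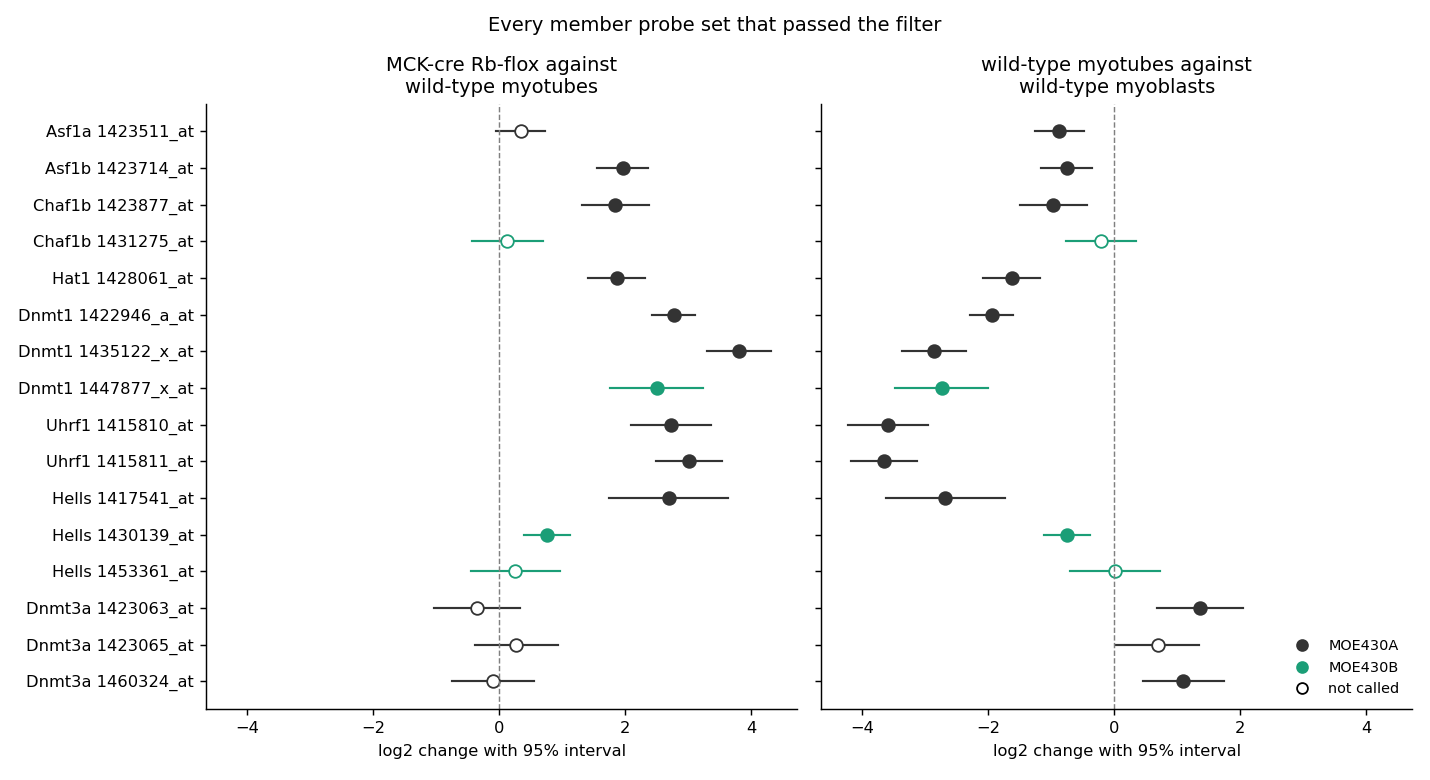
Log2 change with its 95% interval for each of the 16 probe sets that passed the filter, in MCK-cre Rb-flox myotubes against wild-type controls (left) and wild-type myotubes against wild-type myoblasts (right), coloured by array type, with filled points for an adjusted p under 0.05. Chaf1b 1431275_at and Hells 1453361_at stay near 0 in both panels.

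Related genes were described by lists. Of 13 measured genes for H3-H4 supply and assembly at the fork, 9 were higher and none lower in MCK-cre Rb-flox than in wild-type myotubes, with a median log2 change of 1.27. Of all 14331 genes 6.13% were higher and 3.77% lower. Mcm2, a helicase subunit that also binds H3-H4, had 8907, 9684 and 9552 in MCK-cre Rb-flox myotubes, against 528, 498 and 541 in wild-type myotubes (3.86 ± 0.16, limma adjusted p 2.43e-08). Pcna, the clamp that recruits CAF-1 and Dnmt1, had 28517, 34067 and 33654 in MCK-cre Rb-flox myotubes, against 3109.6, 1749 and 3089 in wild-type myotubes (3.57 ± 0.22, limma adjusted p 6.16e-07). In both genes the groups lay far apart. Tonsl, a reader of newly deposited H4, changed by 2.35 (limma adjusted p 0.00309). Rbbp4, the small subunit of CAF-1, had 7093, 6060.1 and 8126 in MCK-cre Rb-flox myotubes, against 4868, 3920.2 and 6061 in wild-type myotubes, which overlapped (0.52, limma adjusted p 0.131).

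Of 7 measured partners of maintenance methylation, 3 were higher and none lower, with a median log2 change of 0.80. These were Lig1, the ligase that joins Okazaki fragments (2.24 ± 0.27, limma adjusted p 0.000249), Cdca7l (1.85 ± 0.35, 0.00517) and Trim28, a corepressor that silences transposons (0.80 ± 0.20, 0.0252). Cdca7, the activator of Hells, had 81, 124 and 644 in MCK-cre Rb-flox myotubes, against 77.7, 45.7 and 57.7 in wild-type myotubes. Culture L alone was well above the offset, and the log2 difference of 0.87 did not pass (limma adjusted p 0.236). Usp7, which deubiquitinates Uhrf1 and Dnmt1, had a difference of -0.06 with an interval of -0.60 to 0.48.

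The other 3 lists hold chaperones, methylation readers and erasers, and acetyltransferases, some of which also act in replication (Kat7 in origin licensing, for example). Of 12 other histone chaperones 1 was higher, Nap1l1 (0.79, limma adjusted p 0.0421), and the list median was 0.01. Of 10 readers and erasers of DNA methylation 1 was higher, Mbd4, a glycosylase of mismatched thymine (1.04, limma adjusted p 0.0492), and the median was -0.05. Tet1, which oxidises methylcytosine, had a difference of -0.40 (0.603). Of 9 other histone acetyltransferases 1 was higher, Kat2b (1.70, limma adjusted p 0.00687), and the median was 0.17. None of these 31 genes was lower. In wild-type myotubes against wild-type myoblasts, 10 of 13 fork genes and 5 of 7 methylation partners were lower, and 4 of 12, 1 of 10 and 1 of 9 in the other lists, against 14.5% of all genes lower and 13.2% higher. In Rb-null against wild-type myoblasts no gene of any list was called, and the medians were 0.55 for the fork genes, 0.08 for the methylation partners and 0.04, 0.03 and 0.28 for the others.

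**Figure D4:**
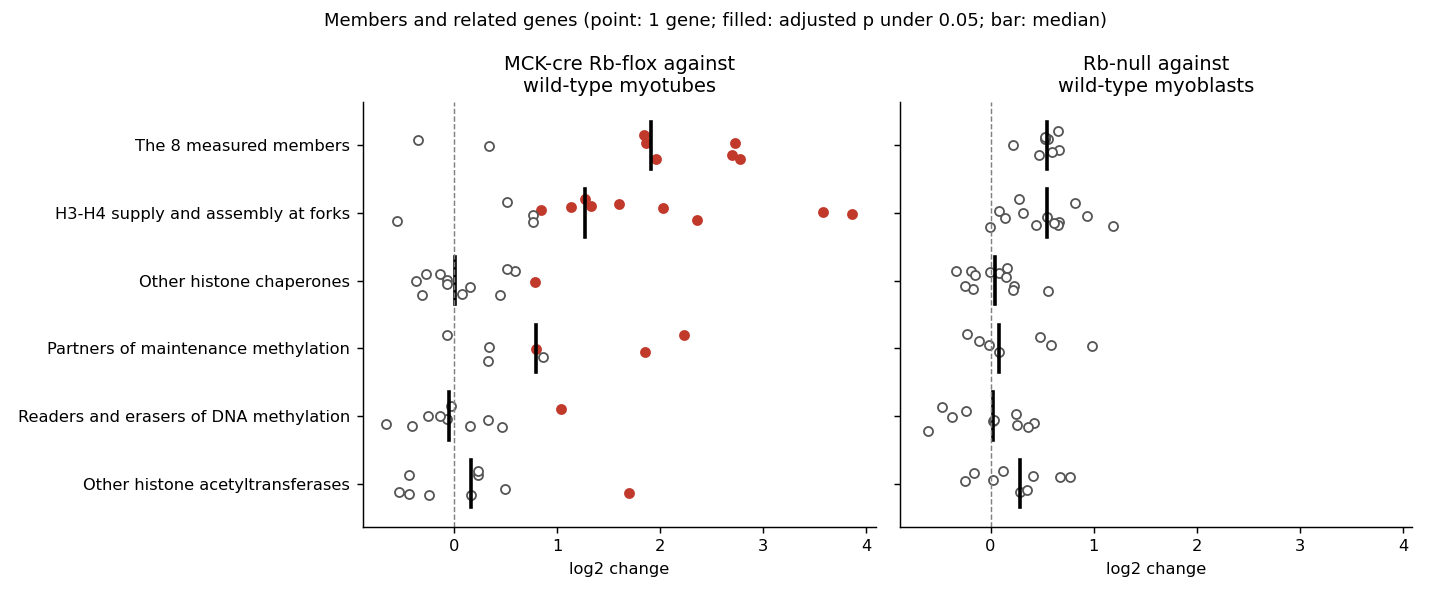
Log2 change of the 8 measured genes of the set and of 5 lists of related genes, in MCK-cre Rb-flox myotubes against wild-type controls (left) and Rb-null against wild-type myoblasts (right), with 1 point per gene, filled for an adjusted p under 0.05, and a bar at the median. The fork genes reach 3.86 in myotubes, and no point is filled in myoblasts.

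By Pearson's r of log2 values over the 12 cultures, given as a description, the gene outside the set most like Dnmt1 was Mcm2 (0.995), followed by Mcm3 (0.986) and Pole2 (0.983). The nearest to Uhrf1 were Ncapd2 (0.99), Hmgb2 (0.985) and Dbf4 (0.985), and to Hat1 Mcm6 (0.982), Rrm2 (0.981) and Dnajc9 (0.979). Asf1b was nearest to Rpa1 (0.958), Plp2 (0.95) and Ubr7 (0.949), and Dnmt3a to Slc1a3 (0.94), Sun2 (0.922) and A530047J11Rik (0.918). The 12 cultures form 4 groups, so these values mostly rank how alike the group means are.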

How the data were processed

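RNA of 12 cultures was labelled as biotin cRNA and hybridised to 24 Affymetrix arrays, 1 MOE430A and 1 MOE430B per culture. For each array the authors deposited linear intensity values, 1 for each probe set, computed with MAS5 per the submitters' processing notes, with no version given. The scaling was read from the values: the mean after removing 2% of probe sets at each end is 1500.15 to 1500.57 on every array. No detection calls were used. The number of arrays, 3 per group, limits the precision. Scan records deposited with the arrays were read only for scan day and fluidics protocol.

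Genes were named from the platform annotation and RefSeq (GRCm38.p6): on MOE430A 20393 probe sets had 1 gene, 691 several, 1555 none and 64 were controls (excluded); on MOE430B 14674, 245, 7605 and 64. Deposited intensities plus an offset (20th percentile of the chip type's table) were put on the log2 scale. Probe sets above the 40th percentile of their own array on at least 3 of 12 arrays were kept, 15628 on MOE430A and 16303 on MOE430B. All 12 cultures, with 1 mean per group and no covariate, were fitted in limma 3.58.1 (R 4.3.3, lmFit and eBayes with trend), with Benjamini-Hochberg adjustment over all 31931 probe sets. Genes were counted by 1 probe set, MOE430A before MOE430B. The fit was tested on simulated data. Promoter searches, permutation tests and figures used Python 3.11.15, pandas 2.3.3, scipy 1.17.1 and matplotlib 3.10.9.

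The members and lists were chosen with earlier results of these data known. Of each list, up to 3 called genes with the largest change between both kinds of myotubes are named, plus Pcna, Mcm2, Rbbp4, Cdca7, Usp7 and Tet1. Rb1 is the label check. The 3 most correlated genes are named for Uhrf1, Dnmt1, Asf1b, Dnmt3a and Hat1. Alternatives were other offsets, no filter, quantile normalization, median centring, 1 probe set per gene, separate chip types, only the compared groups, scan day as a block, array weights, leaving out each culture, and fluidics protocol as a block. Culture letters are not shared between groups, so no pairing was used.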

Additional observations from a re-analysis of the deposited data

Results flagged for a closer look

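6 probe sets of 4 genes differed in their response to Rb loss between myotubes and myoblasts, by the limma test of the difference itself. The Rb-deficient myotubes and myoblasts carried different alleles, so stage and allele cannot be told apart in it. For Dnmt1 the log2 change in myotubes exceeded that in myoblasts by 2.10 on probe set 1422946_a_at (limma adjusted p 0.000632) and by 3.09 on 1435122_x_at (0.000632). The changes behind the first were 2.77 in myotubes and 0.67 in myoblasts, and behind the second 3.80 and 0.71. The other Dnmt1 probe set that passed the filter, 1447877_x_at on MOE430B, did not pass this test. For Uhrf1 the differences were 2.20 on 1415810_at (limma adjusted p 0.0198) and 2.32 on 1415811_at (0.00441). For Asf1b the difference was 1.40 (limma adjusted p 0.0209) and for Hat1 1.39 (0.0356). In all 6 the MCK-cre Rb-flox myotubes lay wholly above wild-type myotubes, whereas Rb-null and wild-type myoblasts overlapped on 1415810_at of Uhrf1 and on Hat1. The test that picked these 6 contains the same myotube comparison, and the share of all probe sets that lie apart is not given. The separation therefore only describes them. The proliferation markers were also wholly higher in MCK-cre Rb-flox than in wild-type myotubes, and their part in these differences was not tested.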

How the results depend on the processing

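Of 1096 recomputed values of single genes under the alternatives, 1022 kept direction and side of the threshold, 52 lost their call and 11 gained one. Another 11, called under neither setting, changed sign: 7 of Hells and 1 each of Hat1 and Chaf1b in MCK-cre Rb-flox myotubes against myoblasts (with scan day as a block, Hells went to 0.21 and Chaf1b to -0.35 against Rb-null myoblasts, and Hat1 to -0.08 against wild-type ones), and 2 of Asf1a in the difference of effects. In MCK-cre Rb-flox myotubes against their wild-type controls the 6 higher genes and 0 lower genes stood under every alternative and without each culture, while the count of all probe sets called went to 1293 with only the compared groups from 2623, and to 1798 to 2790 without 1 culture. In wild-type myotubes against wild-type myoblasts 1 gene was higher and 7 lower without each culture, and scan day as a block left 0 higher; all probe sets called were 3764 with that block, against 7972, and 5060 to 8755 without 1 culture, the lowest without C. In Rb-null against wild-type myoblasts 0 genes of the set were called either way, also without each culture. Of all probe sets, 2 were called with separate chip types, 3 with array weights and 0 to 1 without 1 culture. With the fluidics block on MOE430A, that of Rb1 was called (limma adjusted p 0.0438).

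In MCK-cre Rb-flox myotubes against Rb-null myoblasts the 1 higher gene became 0 with median centring, with only the compared groups and when blocking on scan day, and the 2 lower became 0 with scan day; without 1 culture they were 0 to 1 and 1 to 2. All probe sets called there were 242 with scan day, against 4882, and 2741 to 5615 without 1 culture, the lowest without D. Against wild-type myoblasts the 4 higher genes became 2 with only the compared groups and with scan day, and 2 to 4 without 1 culture, with 2 without A, C or K. The 0 lower genes became 1 with the offset at the 40th percentile, 1 probe set per gene or array weights, 2 with separate chip types or the fluidics block, and 0 to 1 without 1 culture. All probe sets called were 1691 with scan day and 8643 with array weights, against 5057, and 2525 to 5637 without 1 culture, the lowest without C.

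For the Rb effect in myotubes minus that in myoblasts, the 4 higher genes became 2 with the offset at the 40th percentile, 3 with median centring, 5 with array weights and 1 to 4 without 1 culture, with 1 without C or D and 2 without E or J, and 0 were lower throughout. All probe sets called were 683 with separate chip types and 838 with array weights, against 414, and 177 to 493 without 1 culture, the lowest without C. Only the compared groups could not be run for it, since it uses all 4. Fewer cultures or groups leave a less certain spread; for the other changes the cause was not tested. No paired analysis was possible because culture letters are not shared between groups. Dim signals limit Uhrf1 and Hells in wild-type myotubes and Dnmt3b everywhere: there the offset, not the intensity, sets much of the log2 value.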

Other observations

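Of the 7 measured partners of maintenance methylation, 3 were lower in MCK-cre Rb-flox myotubes than in both groups of myoblasts. Of all genes 8.7% were lower against Rb-null and 8.51% against wild-type myoblasts. Each gene is given by 1 probe set, of 7 that passed the filter for Usp7 and 2 each for Cdca7 and Trim28. The others are not given, nor are these calls with the scan day as a block, and Rb-null myoblasts shared no scan day with the myotubes. Cdca7 had 81, 124 and 644 in MCK-cre Rb-flox myotubes, against 1610.2, 1653 and 1822 in Rb-null myoblasts and 1110.4, 989.9 and 1164 in wild-type myoblasts, log2 changes of -2.40 (limma adjusted p 0.00222) and -1.81 (0.00948). Usp7 had 5296, 3111 and 6295 in MCK-cre Rb-flox myotubes, against 14945, 10381 and 12602 in Rb-null myoblasts and 12562, 11353 and 14278 in wild-type myoblasts (-1.37 and -1.39, limma adjusted p 0.00345 and 0.00313). Trim28 was lower by the same comparisons (-1.34 and -0.86, limma adjusted p 0.00108 and 0.0114). For all 3 genes no MCK-cre Rb-flox myotube culture reached a myoblast culture. The 3 were picked by their calls in these comparisons, and the share of all probe sets that lie apart is not given. The separation therefore only describes them. Lig1, by contrast, was higher in MCK-cre Rb-flox myotubes than in wild-type myoblasts (0.93, limma adjusted p 0.0339).

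Kat2b, a histone acetyltransferase of the PCAF type, had 937, 967 and 506 in MCK-cre Rb-flox myotubes, 238, 112 and 113 in wild-type myotubes, 204, 228 and 141 in Rb-null myoblasts and 49.2, 85.4 and 39.1 in wild-type myoblasts. The MCK-cre Rb-flox myotubes were above every other culture, with log2 changes of 1.70, 1.51 and 2.28 against those groups in turn (limma adjusted p 0.00687, 0.00987 and 0.00103). All wild-type myoblasts lay below the MOE430A offset of 130.2, and the other 2 groups near or below it, so the offset sets much of these sizes. The difference between wild-type myotubes and wild-type myoblasts did not pass the test (0.58, limma adjusted p 0.225). These values are of 1 of the 3 Kat2b probe sets that passed the filter, and they are not given with the scan day as a block.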
